A study of Mus musculus with 6 samples.

Results

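Idh1 encodes the isocitrate dehydrogenase of the cytosol and peroxisomes, which makes NADPH, and it was examined here together with 9 other enzymes of NADPH supply and of the isocitrate step in ER-negative luminal cells of the mouse mammary gland. The 10 enzymes were Idh1, Idh2, Idh3a, Me1, G6pdx, Pgd, Tkt, Taldo1, Aco1 and Nnt. Idh1 was chosen by its measured difference between the genotypes on these same arrays, as one of 2 probe sets, with Sox9, that had an adjusted p under 0.05, and its difference is therefore described without a test. The other enzymes were listed for what they do. Each gene was represented by the probe set that carries its symbol in the platform annotation, and 7 of the 10 were found among 22206 tested probe sets, 19572 of which have 1 symbol. G6pdx, Tkt and Nnt were not matched and were not analysed here. Each of the 7 had a single probe set.

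The samples were ER-negative luminal cells (lineage-negative, EpCAM-high, CD49f-low, Sca1-negative) sorted from female mice of 8 to 12 weeks in diestrus, with 1 microarray per animal. The arrays are called WT1 to WT3 and KO1 to KO3 by the replicate numbers in their labels. The 3 WT animals carried floxed Sox9 on both alleles and no Cre, and the 3 Sox9 KO animals carried the same floxed alleles with MMTV-iCre, a Cre transgene under a mammary tumour virus promoter that is active in only part of the epithelium. Sox9 KO cells were in addition gated on ECFP, a reporter that Cre switches on, so genotype, Cre and this gate cannot be told apart. The conditional knockout mice were on a mixed C57BL/6J and FVB/NJ background. Values are log2 array signals, on which a difference of 1 is a 2-fold difference in signal, and they compare arrays for the same probe set, not one gene with another. Because each array measures a population of cells, a smaller share of cells with a transcript and less transcript per cell cannot be told apart.

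Sox9, the deleted gene, had log2 signals of 11.60, 11.54 and 11.47 on the WT arrays and 6.73, 7.84 and 7.51 on the Sox9 KO arrays, at least 11.6-fold lower when set against the background bar described next. A background bar was set on each array at the signal that 95% of its 5222 negative controls did not exceed. This bar ran from 7.75 to 8.58, and 20.8% to 29.6% of tested probe sets were above it. Krt8, Krt18 and Epcam, which mark luminal cells, and Kit, which marks the ER-negative luminal cells, exceeded the bar on all 6 arrays, and Elf5, the transcription factor of the alveolar lineage, did on 5 of the 6. The leukocyte gene Ptprc and the endothelial gene Pecam1 were below it on every array. Of 8 measured ER-positive luminal genes, 4 were below it on every array, among them Esr1, the estrogen receptor, while Pgr, Foxa1, Cited1 and Prom1 exceeded it on WT3 alone, and the list median stood 0.91 above the WT mean on WT3 and between -0.73 and -0.35 on the other arrays. Of 11 measured basal genes, 7 were below the bar on every array, including Krt5 and Acta2, but Krt14 exceeded it on 2 WT and 3 Sox9 KO arrays and Trp63 on the 3 Sox9 KO arrays only. The median difference of the 12 ER-negative luminal markers was -0.34, with 0 past the adjusted threshold in limma and 5 lower and 0 higher at an unadjusted p under 0.05, which 4.99% (lower) and 4.28% (higher) of all tested probe sets reached. For 10 markers shared by luminal cells the median was -0.24, with 0 past the adjusted threshold. At an unadjusted p under 0.05, 4 of the 10 were lower and 0 higher, beside the same shares. Their groups did not overlap for 5 that were lower and 0 that were higher, beside 7.3% and 6.85% of all probe sets. Krt8, Krt18 and Epcam were among these 5, with differences of -0.25, -0.23 and -0.42. KO1 stood apart on the first principal component, with a score of 57.4 against -27.1 to 15.1 on the other arrays. The median of 15 measured cell cycle genes stood 3.37 above the WT mean on KO1, 0.70 on KO2, 0.09 on KO3 and 0.60 on WT1. The median of 9 measured fibroblast genes stood 1.89 above the WT mean on KO3 and between -0.26 and 0.46 on the other arrays.

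NADPH carries the electrons that cells spend on making fatty acids and sterols and on keeping glutathione and thioredoxin reduced. In the cytosol it comes mainly from the oxidative pentose phosphate pathway, from malic enzyme and from the NADP-dependent isocitrate dehydrogenase IDH1, while IDH2 and the transhydrogenase NNT serve mitochondria and IDH3 makes NADH in the citric acid cycle. The lactating mammary gland is a major site of fatty acid synthesis, and cytosolic isocitrate dehydrogenase has long been viewed as a main NADPH source in ruminant mammary tissue.

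The stretches before the annotated start sites of Idh1 and Idh2 are shown because these are the NADP-dependent isocitrate dehydrogenases whose signals are set side by side below. They are the 250 bases upstream of each start in RefSeq on GRCm38.p6, read along the minus strand on which both genes lie, and 8 of the 10 enzymes had such windows, 11 in all. Idh1 has 2 annotated starts, the upstream one with the window chr1:65186480-65186729 and the downstream one with the window chr1:65179143-65179392, and Idh2 has 1, with the window chr7:80115351-80115600. Capitals mark every match, on either strand, to ACAAT and ACAAAG, short forms of the site bound by SOX factors, to CCAAT, the site bound by NF-Y, and to TGACNNNGC, the core of the antioxidant response element bound by NRF2.

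Idh1 upstream start: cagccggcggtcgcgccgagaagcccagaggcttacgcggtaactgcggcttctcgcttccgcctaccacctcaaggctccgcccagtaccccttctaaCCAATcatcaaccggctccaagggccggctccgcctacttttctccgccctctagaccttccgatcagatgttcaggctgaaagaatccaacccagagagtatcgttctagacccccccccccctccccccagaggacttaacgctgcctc
Idh1 downstream start: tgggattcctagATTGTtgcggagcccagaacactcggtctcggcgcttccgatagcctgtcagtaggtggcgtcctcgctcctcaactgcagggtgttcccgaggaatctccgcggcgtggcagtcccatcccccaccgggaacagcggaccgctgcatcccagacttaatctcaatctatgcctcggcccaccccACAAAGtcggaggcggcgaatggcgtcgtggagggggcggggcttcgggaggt
Idh2: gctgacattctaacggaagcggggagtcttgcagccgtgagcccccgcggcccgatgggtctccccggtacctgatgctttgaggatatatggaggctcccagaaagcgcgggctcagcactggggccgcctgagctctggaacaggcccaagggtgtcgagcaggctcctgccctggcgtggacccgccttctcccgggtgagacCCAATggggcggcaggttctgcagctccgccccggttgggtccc

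The window of the upstream Idh1 start held a CCAAT at 151 bases before the start and neither SOX form. The window of the downstream Idh1 start held ATTGT, the reverse complement of ACAAT, at 238 bases and ACAAAG at 53 bases before the start. The Idh2 window held only a CCAAT at 44 bases. ACAAT was present in 27.7% of all 32851 windows of this length, ACAAAG in 16.5%, CCAAT in 33.8% and TGACNNNGC in 10.2%, and in 4, 4, 5 and 1 of the 11 windows of the enzymes. The matches did not overlap. These short sequences are common, a match is a description of the letters and not a binding site, and which start is used in these cells was not measured.

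Of the 7 enzymes, Idh1 was the one whose Sox9 KO and WT arrays did not overlap. Its log2 signal was 7.84, 7.31 and 7.59 in WT and 9.57, 9.75 and 9.59 in Sox9 KO. All 3 Sox9 KO arrays lay above all 3 WT arrays, with a gap wider than the spread inside either group. The means were 7.58 ± 0.27 and 9.64 ± 0.10 (SD, n = 3 each), a difference of 2.06 on the log2 scale (SE 0.17). The 3 WT signals were under the background bar, above 86.5% to 93.4% of the negative controls, and the 3 Sox9 KO signals exceeded 98.8% to 99% of them. The WT level is therefore only bounded, and Idh1 was at least 2.56-fold higher in Sox9 KO when set against the bar. KO1, KO2 and KO3 stood at 1.99, 2.17 and 2.01 over the WT mean. The Sox9 KO values spanned 0.18 and the WT values 0.53, and since Idh1 was chosen by a test that favours a small spread, these ranges are a description only. The part of the cell cycle, ER-positive luminal and basal genes described above in the Idh1 signal was not tested. The Idh1 difference was 2.06 with WT3 left out and 2.09 with KO1 left out. These values describe the chosen difference and do not test the part of those genes.

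**Figure D1:**
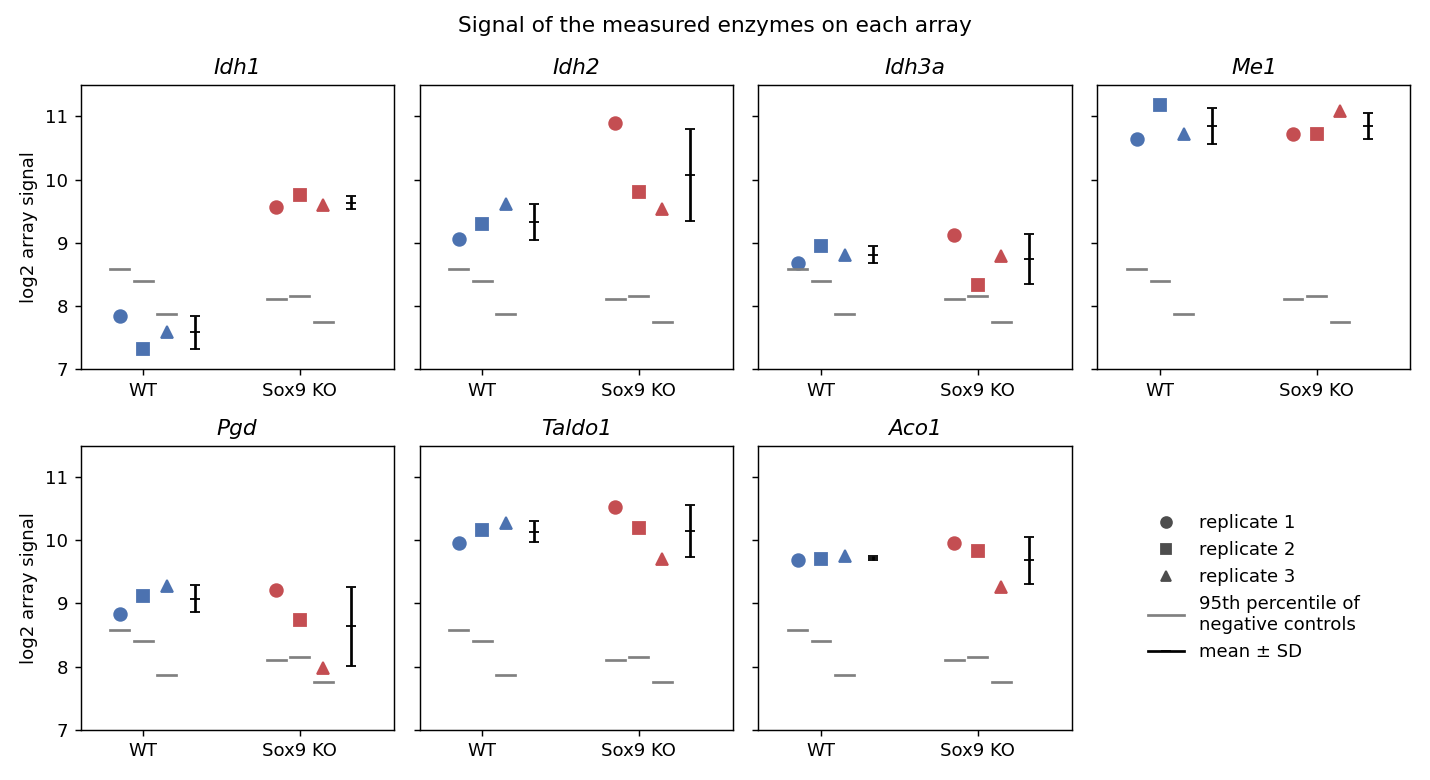
Log2 array signal (vertical axis) of the 7 measured enzymes in the WT (blue) and Sox9 KO (red) arrays, with 1 point per animal, shapes for replicate numbers, bars for the mean ± SD (n = 3) and grey ticks for the background bar of the same array. Idh1 lies below the grey ticks on the WT arrays and at 9.57 to 9.75 on the Sox9 KO arrays, while the 2 groups overlap for the other 6 enzymes.

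Idh2, the NADP-dependent isocitrate dehydrogenase of mitochondria, had signals of 9.06, 9.30 and 9.62 in WT and 10.90, 9.80 and 9.53 in Sox9 KO. KO1 was far above the rest, and KO3 lay below WT3. The difference was 0.75 (SE 0.34, 95% interval -0.05 to 1.55) with an adjusted p of 0.565 in limma, or 0.34 with KO1 left out. The array with the high Idh2 signal was the one with the high cell cycle level, and the part of the latter in the Idh2 value was not tested.

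Idh3a, the catalytic subunit of the NAD-dependent isocitrate dehydrogenase of the citric acid cycle, had signals of 8.68, 8.94 and 8.81 in WT and 9.12, 8.33 and 8.79 in Sox9 KO. The Sox9 KO arrays held both the highest and the lowest value, and the difference was -0.06 (SE 0.21, 95% interval -0.55 to 0.42, adjusted p 0.959 in limma). Its partner subunit Idh3g differed by 0.45 (SE 0.20, adjusted p 0.547) with groups that did not overlap, and Idh3b by 0.19 (SE 0.14, adjusted p 0.729). These subunits were named outside the rule for named genes, as partners of Idh3a. Aco1, the cytosolic aconitase that makes the isocitrate used by IDH1 and that doubles as an iron-responsive RNA-binding protein, had signals of 9.69, 9.71 and 9.75 in WT and 9.96, 9.83 and 9.26 in Sox9 KO. The WT animals were almost alike and the Sox9 KO animals lay on both sides of them, with a difference of -0.03 (SE 0.20, 95% interval -0.49 to 0.42, adjusted p 0.978 in limma).

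Of the pentose phosphate pathway, Pgd, the 6-phosphogluconate dehydrogenase that makes NADPH, had signals of 8.84, 9.12 and 9.27 in WT and 9.21, 8.73 and 7.97 in Sox9 KO. Only KO2 and KO3 lay below the WT range. The difference was -0.44 (SE 0.30, 95% interval -1.14 to 0.26, adjusted p 0.701 in limma), and it moved to -0.11 with KO3 left out and to -0.73 with KO1 left out. Taldo1, a transaldolase of the non-oxidative branch that makes no NADPH itself, had signals of 9.96, 10.17 and 10.28 in WT and 10.53, 10.20 and 9.71 in Sox9 KO, a difference of 0.01 (SE 0.22, 95% interval -0.50 to 0.52, adjusted p 0.994). Pgd, Taldo1 and Aco1 shared an order among the Sox9 KO animals, with KO1 highest and KO3 lowest, and KO3 was the lowest of all 6 arrays for each. That array had the highest fibroblast level and KO1 the highest cell cycle level, and the part of either in these values was not tested.

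Me1, the cytosolic malic enzyme that makes NADPH from malate, had signals of 10.64, 11.18 and 10.73 in WT and 10.73, 10.72 and 11.09 in Sox9 KO. The groups covered the same range, and the difference was -0.003 (SE 0.19, 95% interval -0.44 to 0.44, adjusted p 0.996 in limma). The 95% intervals of Me1, Idh3a, Taldo1 and Aco1 lay within 0.55 on either side of no difference. Those of Idh2 and Pgd were wider and reached 1.55 and -1.14, so that a 2-fold difference lies inside each of them.

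**Figure D2:**
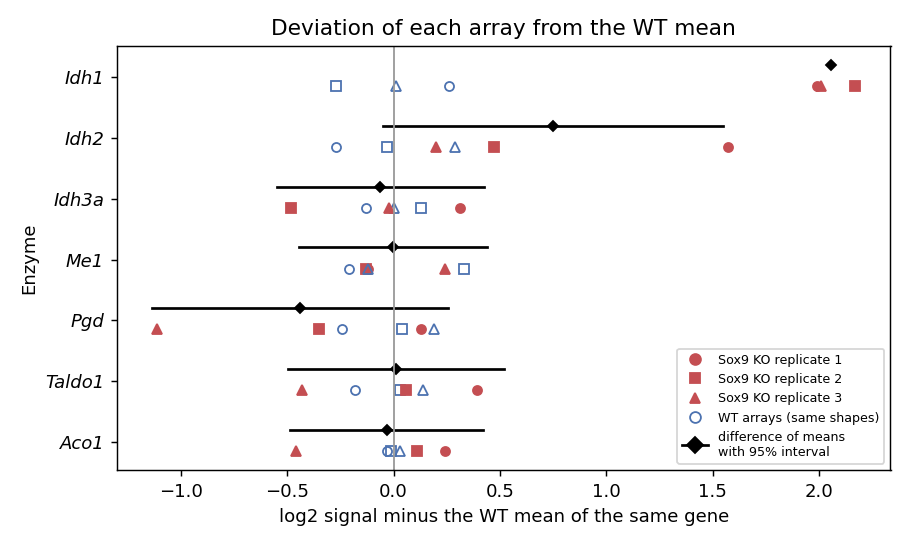
Log2 signal of each array minus the WT mean of the same gene (horizontal axis) for the 7 measured enzymes (vertical axis), with open blue symbols for WT arrays and filled red symbols for Sox9 KO arrays, and black diamonds for the difference of the means, with its 95% interval for all but Idh1, which was chosen for its difference. The Sox9 KO arrays stand 1.99 to 2.17 above the WT mean for Idh1, and the intervals of the other 6 enzymes include 0.

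In all, 0 of the 6 enzymes measured beside Idh1 passed an adjusted p of 0.05 in limma, against 0.00901% of all tested probe sets, and 0 passed an unadjusted p of 0.05, which 9.26% of probe sets did (4.28% with Sox9 KO higher and 4.99% with it lower). None was both over 2-fold and under an unadjusted p of 0.05, as 1.14% of probe sets were. The methods' unpaired test, adjusted in the same way, also called 0 of them. It called 0 of all tested probe sets, so this count cannot set the enzymes apart from other genes. Their groups overlapped in all 6, where 14.1% of probe sets had groups that did not overlap, 6.85% with Sox9 KO higher and 7.3% with Sox9 KO lower. Their median difference was -0.02 (2 higher and 4 lower), beside 0.01 over all tested probe sets. The difference between Idh1 and these enzymes in their response was not tested, because Idh1 had been selected for it.

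Other enzymes that supply NADPH or feed it were taken from a list of 17, of which 16 were measured and 10 were under the background bar throughout. The list was spread around no difference, with 7 higher, 9 lower and a median of -0.11, and 0 genes passed the adjusted threshold in either direction while 1 higher and 2 lower had an unadjusted p under 0.05 (4.28% and 4.99% of all probe sets). Nadk, the cytosolic kinase that makes NADP from NAD, had signals of 8.12, 8.46 and 8.65 in WT and 7.98, 8.07 and 7.70 in Sox9 KO (difference -0.49, SE 0.18, adjusted p 0.465), with every Sox9 KO array below every WT array. Its signals on WT1 and on all 3 Sox9 KO arrays were under the bar. Because WT1 was under the bar as well, no fold bound is given for Nadk. The 95% interval of its difference ran from -0.91 to -0.07. Pgls, the lactonase between glucose-6-phosphate dehydrogenase and PGD, differed by 0.61 (SE 0.24, adjusted p 0.492), with its highest value of 9.29 on KO1 and 8.35 on KO3. The Pgls signals on WT1 and WT2 were under the bar. Mthfd2, a mitochondrial enzyme of one-carbon metabolism, differed by -0.52 (SE 0.21, adjusted p 0.501). Without WT2 the list median was 0.06.

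Of 22 genes of citrate handling and the citric acid cycle, 21 were measured, 14 were higher and 7 lower in Sox9 KO, and the median difference was 0.27. None passed the adjusted threshold in limma, and an unadjusted p under 0.05 was reached by 3 that were higher and 0 that were lower, beside 4.28% and 4.99% of all probe sets. The groups did not overlap for 7 that were higher and 1 that was lower, beside 6.85% and 7.3% of all probe sets. The lower one was Ogdh, a subunit of the oxoglutarate dehydrogenase (-0.28, SE 0.13), named here after its value was seen. Slc25a1, the carrier that brings mitochondrial citrate to the cytosol, where aconitase and IDH1 can use it, had signals of 9.96, 9.83 and 10.23 in WT and 10.74, 10.70 and 10.33 in Sox9 KO, a difference of 0.58 (SE 0.17, adjusted p 0.382). All 3 Sox9 KO arrays lay above the WT arrays, although KO3 did so by little. Mdh2, the mitochondrial malate dehydrogenase, had 10.54, 10.36 and 10.55 in WT and 11.07, 10.85 and 10.86 in Sox9 KO (difference 0.44, SE 0.14, adjusted p 0.392). Sdhc, a membrane subunit of succinate dehydrogenase, differed by 0.51 (SE 0.18, adjusted p 0.449) under the bar throughout. Pcx, pyruvate carboxylase, had the lowest difference of the list, -0.58 (SE 0.45, adjusted p 0.738). Pcx exceeded the bar on WT3 alone, with a signal of 8.49, and its difference was -0.11 without WT3. The list median stood 0.59 above the WT mean on KO1 but 0.13 and 0.03 on KO2 and KO3. Without KO1 the median difference was 0.07. KO1 also had the highest cell cycle level, and the part of the latter in this list was not tested.

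Enzymes that spend NADPH went both ways, with 12 of 18 measured genes higher, 6 lower and a median difference of 0.11. None passed the adjusted threshold in limma, and 1 higher and 2 lower had an unadjusted p under 0.05 (4.28% and 4.99% of all probe sets). Txnrd1, the cytosolic thioredoxin reductase, had signals of 11.87, 12.08 and 11.62 in WT and 11.48, 10.64 and 11.34 in Sox9 KO (difference -0.70, SE 0.24, adjusted p 0.436), with all Sox9 KO arrays below the WT arrays. Nqo1, a quinone reductase, had 7.60, 7.40 and 7.23 against 5.83, 5.99 and 7.20 (difference -1.07, SE 0.34, adjusted p 0.407), under the bar throughout. KO3 lay next to the WT arrays for this gene. Cyba, a subunit of the NADPH oxidase, differed by 0.31 (SE 0.13, adjusted p 0.509), and Cbr1, a carbonyl reductase, by 0.39 (SE 0.25, adjusted p 0.673). Cbr1 exceeded the bar on WT3 and KO3 only. Gsr, the glutathione reductase, differed by -0.16 (SE 0.20, adjusted p 0.854), and Fasn, the fatty acid synthase, by 0.12 (adjusted p 0.896); these 2 were named outside the rule, as the main uses of NADPH.

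Among 12 measured genes of fatty acid synthesis, 9 were higher and 3 lower, with a median of 0.10 and 0 past the adjusted threshold in limma, while 2 that were higher and 0 that were lower had an unadjusted p under 0.05 (4.28% and 4.99% of all probe sets). Elovl5, which lengthens polyunsaturated fatty acids, had signals of 7.91, 7.42 and 8.18 in WT and 9.17, 8.99 and 8.51 in Sox9 KO, with no overlap and a difference of 1.05 (SE 0.24, adjusted p 0.276). Its WT1 and WT2 signals were under the bar. Acss2, which makes cytosolic acetyl-CoA from acetate, differed by 0.41 (SE 0.14, adjusted p 0.440), under the bar throughout. Acaca, the acetyl-CoA carboxylase, had groups that did not overlap in the other direction (-0.41, SE 0.19, adjusted p 0.565), with WT1 under the bar. Thrsp, a lipogenic nuclear protein under the bar throughout, and Dgat2, which makes triglycerides, held the ends of the list with 1.09 (SE 0.66) and -0.64 (SE 0.39). The high Thrsp value came from a signal of 7.30 on KO1, against 4.07 to 5.25 on the other 5 arrays. For Dgat2 the signal was 9.21 on WT3, against 7.32 to 7.91 on the other arrays, and the difference was -0.17 without WT3. Dgat2 exceeded the bar on WT3 and KO3 only.

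NRF2, the transcription factor of the oxidative stress response, is known to activate several NADPH-producing enzymes, and most of its listed genes were lower in Sox9 KO. All 16 were measured, 3 of them higher and 13 lower, their median was -0.39, and 0 passed the adjusted threshold in limma. An unadjusted p under 0.05 was reached by 5 that were lower and 0 that were higher, beside 4.99% and 4.28% of all probe sets. Hmox1, the heme oxygenase, had signals of 10.94, 11.67 and 11.03 in WT and 9.32, 9.29 and 10.47 in Sox9 KO (difference -1.52, SE 0.35, adjusted p 0.269), so every Sox9 KO array lay below the WT arrays. Osgin1, an oxidative stress-induced growth inhibitor, differed by -0.70 (SE 0.22, adjusted p 0.392) at signals under the bar, and Nqo1 and Txnrd1 belong to this list as well. Keap1, which holds NRF2 in check, was between 9.12 and 9.20 in WT and between 9.40 and 9.43 in Sox9 KO (difference 0.25, SE 0.12, adjusted p 0.585). The list median stood -0.12, -0.35 and -0.32 from the WT mean on KO1, KO2 and KO3, and the median difference was -0.17 without KO2.

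**Figure D3:**
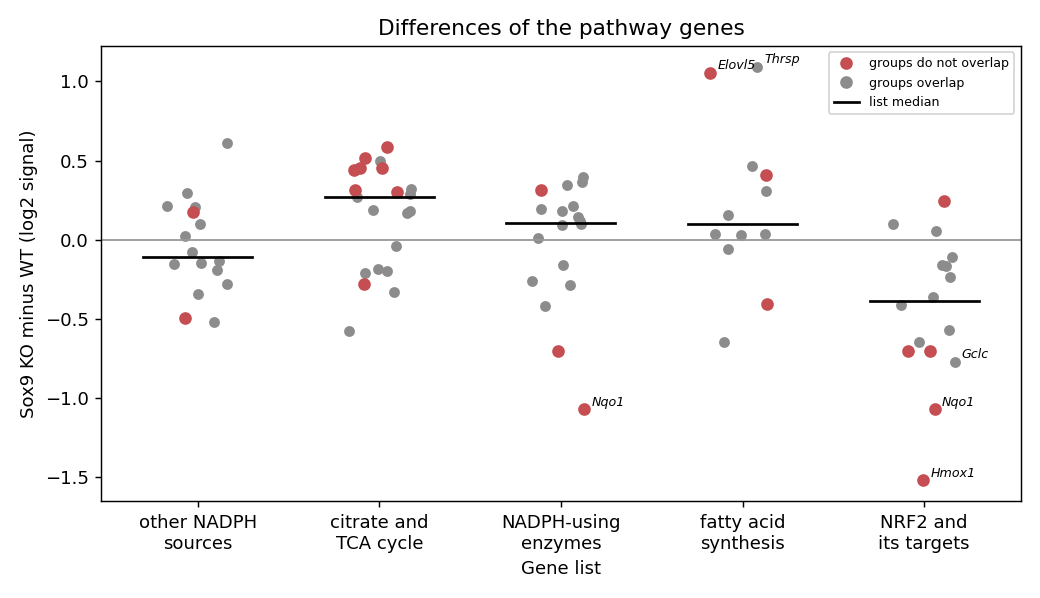
Difference between Sox9 KO and WT in log2 signal (vertical axis) for each measured gene of the 5 pathway lists (horizontal axis), with 1 point per gene, red where the 3 Sox9 KO arrays do not overlap the 3 WT arrays, grey where they do, and a black line at the list median. The medians run from -0.39 for NRF2 and its targets to 0.27 for citrate and the citric acid cycle, and no gene shown passed the adjusted threshold.

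Idh1, Me1 and several lipogenic enzymes are strongly expressed in adipocytes, which surround the mammary epithelium, so adipocyte genes were read beside them. Of 12 listed, 10 were measured and 9 of these, including Adipoq, Plin1, Cidec, Lep and Car3, were under the background bar throughout. Fabp4, which endothelial cells and macrophages share, was the exception, with 10.91, 7.47 and 9.20 in WT and 7.21, 8.15 and 10.11 in Sox9 KO. The list median stood between -0.12 and 0.11 of the WT mean on all 6 arrays, a level set mostly by genes under the bar. Pparg, a lipogenic nuclear receptor of this list, had 5.79, 6.12 and 5.49 in WT and 6.19, 6.85 and 7.56 in Sox9 KO, also under the bar. The part of adipocyte RNA in the Idh1 and Me1 signals was not tested.

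Basal cells, which the gate should exclude, were read in the same way, and some of their genes were, like Idh1, higher in Sox9 KO. Krt14, a keratin of basal cells, had signals of 8.59, 7.30 and 8.95 in WT and 11.08, 10.85 and 10.63 in Sox9 KO (difference 2.57, SE 0.39, adjusted p 0.196 in limma). Trp63, a transcription factor of basal cells, had 7.33, 5.72 and 6.74 in WT and 8.76, 8.74 and 8.27 in Sox9 KO (difference 1.99, SE 0.38, adjusted p 0.199). For both, as for Idh1, every Sox9 KO array lay above every WT array. Krt17, another keratin, differed by 1.15 (SE 0.30, adjusted p 0.315), and the smooth muscle gene Acta2 by 0.10 (SE 0.56, adjusted p 0.976). Krt5 differed by 0.27 (SE 0.22) with groups that overlapped, Cnn1 by 0.06, Myh11 by -0.03 and Mylk by -0.06, all under the bar. In the whole list, 9 genes were higher and 2 lower. Of the 11 basal genes, 4 were higher and 0 lower at an unadjusted p under 0.05 (4.28% and 4.99% of all probe sets), the same number were higher without overlap (6.85%), and 0 passed the adjusted threshold. The list median stood 0.13, 0.44 and 0.83 over the WT mean on KO1, KO2 and KO3 and between -0.22 and 0.20 on the WT arrays. These genes were named after their values were seen, and their part in the Idh1 signal was not tested.

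The genes with the pattern most like Idh1 were ranked by Pearson's r over the 6 arrays among 3378 probe sets with a symbol and a range of at least 1. Because Idh1 separates the genotypes, r here mostly reflects that separation, and it is a description without a test. The highest values were for Gpx8 (0.989), Cyp2f2 (0.973), and Il15, Ddah2 and Tmem229a (0.97 each). Gpx8, a peroxidase of the endoplasmic reticulum, had signals of 6.79, 6.61 and 6.69 in WT and 7.46, 7.68 and 7.41 in Sox9 KO, under the bar throughout. Ddah2, a dimethylarginine hydrolase, was the only one of the 5 above the bar on all 6 arrays, with 9.25, 8.63 and 9.04 in WT and 10.03, 10.38 and 9.91 in Sox9 KO. Cyp2f2, a cytochrome P450, had 7.31, 7.46 and 7.36 against 8.58, 8.94 and 8.74, at least 1.39-fold higher against the bar that its WT signals did not reach. The lowest values were for Mgat4a and Rsl1 (-0.979 each), Rhpn2 (-0.977), Grpel2 (-0.974) and Rnf125 (-0.972). Mgat4a, a glycosyltransferase of the Golgi, had 9.73, 10.13 and 10.20 in WT and 9.01, 8.82 and 8.74 in Sox9 KO, and Grpel2, a mitochondrial co-chaperone, had 9.19, 9.38 and 9.11 against 8.50, 8.23 and 8.54. None of the 10 is an enzyme of NADPH supply.

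**Figure D4:**
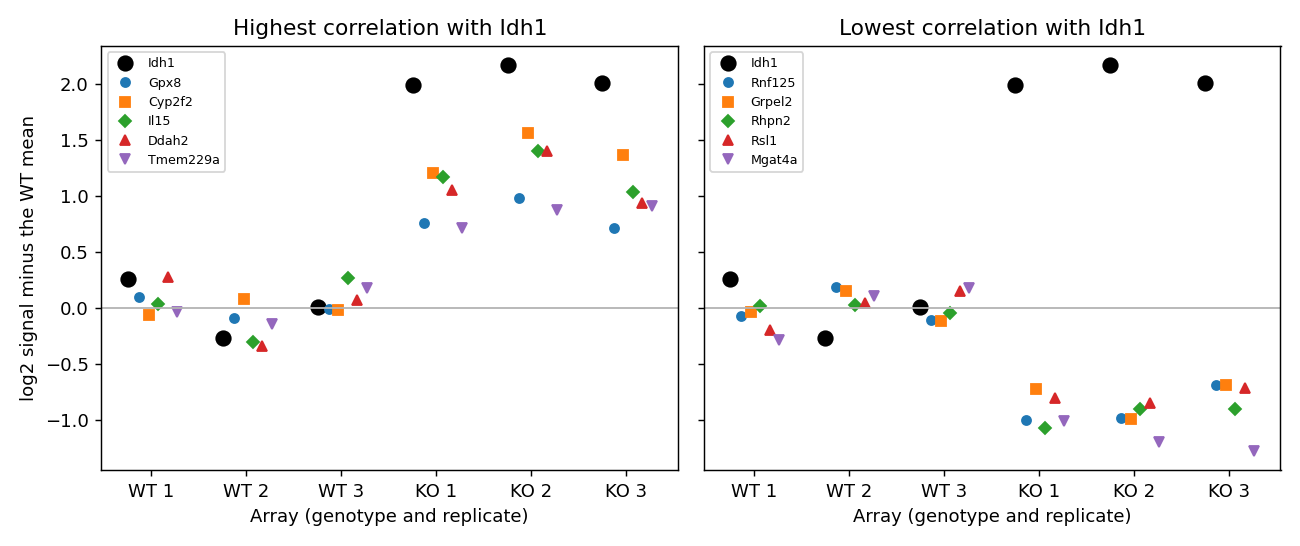
Log2 signal minus the WT mean of the same gene (vertical axis) on each of the 6 arrays (horizontal axis) for Idh1 (black) and, at left, the 5 genes with the highest and, at right, the 5 with the lowest Pearson's r with it. Idh1 stands 1.99 to 2.17 above its WT mean on the Sox9 KO arrays. The WT signals of Idh1 and Cyp2f2, and all signals of Gpx8, Il15 and Tmem229a, are under the background bar, so the heights of these genes are not ranked.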

How the data were processed

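RNA from sorted cells of 3 WT and 3 Sox9 KO animals was hybridised to Affymetrix Clariom S Pico mouse arrays. The authors used the vendor programs, Expression Console and Transcriptome Analysis Console, and deposited log2 signals per probe set. How background was corrected and arrays normalized is not given in the sources used here. The log2 scale was read from the range of the values. Of 28846 rows, 6640 array controls were left out. Symbols came from the platform annotation, updated by gene identifier against RefSeq on GRCm38.p6. No detection calls were used, and the number of arrays limits the precision.

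Testing was two-sided, by moderated linear models without covariates (limma 3.58.1, R 4.3.3), and p-values were adjusted by Benjamini-Hochberg across 22206 probe sets. Differences are Sox9 KO minus WT. The models were first tested on simulated data in which 200 of 22206 probe sets were changed between 3 and 3 arrays. Log2 shifts of 1 were found for 62.5% of the changed probe sets, beside 8 false calls. For log2 shifts of 2 the share was 97%, beside 13 false calls. In the measured data, Krt14 (difference 2.57, adjusted p 0.196 in limma) and Trp63 (1.99, adjusted p 0.199) did not pass the adjusted threshold. The simulated shares therefore do not tell how often real differences of such size would pass here. For a dim group, fold bounds set the bright group against the background bar. Replicates are separate animals. Same-numbered arrays were not treated as pairs in the main model. The enzymes and gene lists were chosen with earlier results of these data known. Named genes were the 10 enzymes, Sox9, the 5 highest and 5 lowest correlates of Idh1, and from each pathway list up to 3 with the smallest p and those at either end. Gsr, Fasn, Idh3b, Idh3g, Ogdh and the marker genes were named outside this rule. The alternatives changed the scaling (quantiles or array medians), the filter (dimmest probe sets removed), the variance model, the weights of the arrays, the use of a replicate block or the test (the methods' unpaired test), or left out each array in turn.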

Additional observations from a re-analysis of the deposited data

How the results depend on the processing

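The Idh1 difference lay between 1.92 and 2.19 without any single array and between 2.02 and 2.12 under the other settings. Because Idh1 was chosen for its difference on these same arrays, these ranges are a description only. In the settings given below where 0 probe sets passed the adjusted threshold, Idh1 did not pass either. Of the 6 other measured enzymes, 0 were called under any setting, though some settings called 0 of all probe sets, as given below. Their smallest adjusted p was 0.297 in limma, for Idh2 without KO3. Their near-zero differences changed sign: Me1 was 0.03 with quantile normalization, Taldo1 was -0.03 with median centring and Aco1 was 0.03 with array weights. Without single arrays Me1 lay between -0.13 and 0.16, Taldo1 between -0.18 and 0.23, Aco1 between -0.17 and 0.18 and Idh3a between -0.25 and 0.14. The count of all probe sets past the adjusted threshold, 2 as reported, was 0 with a replicate block, 0 with the methods' unpaired test and between 0 and 20 without single arrays (0 without WT1, WT2 or WT3, 11 without KO1, 1 without KO2 and 20 without KO3). The count at an unadjusted p under 0.05 was 2057 as reported, 2194 with the block, and between 1250 and 2789 without single arrays, lowest without WT2. Correlations of the deviations of same-numbered arrays were 0.12, -0.03 and 0.03, and those of differently numbered arrays ran from -0.16 to 0.15. With 3 arrays per group, these values cannot tell whether same-numbered arrays were processed together, and the labels do not say. The mean over several probe sets could not be run, since each enzyme has 1. The cause of these changes was not tested, except that leaving out an array leaves fewer samples. Signals below the negative control percentile limit Idh1 in WT and many list genes.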
